A study of Mus musculus with 8 samples.

Results

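The heat shock protein and DnaJ chaperone genes were taken as all gene symbols that begin with Hspa, Hspb, Hspd, Hspe, Hsph, Hsp90 or Dnaj, without pseudogenes, and that held at least 100 UMIs over the 8 brain sections. A UMI, or unique molecular identifier, marks 1 captured mRNA molecule. These letters picked 75 of the 32285 genes in the files, and 68 of them held enough UMIs. The 7 left out were Hspb7 with 45 UMIs, Dnajc5b with 5, Dnajc22 with 3, Hspb9 with 2, and Dnajc5g, Dnajb8 and Dnajb7 with 0. Just inside the limit were Hspa1l with 101 UMIs and Dnajb13 with 133.

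Chaperones bind unfolded or newly made proteins and help them reach or regain their shape. DnaJ proteins, also called Hsp40, bring clients to an Hsp70 and start its ATP cycle, Hsp110 proteins exchange its nucleotide, and Hsp90 acts later on kinases, receptors and other near-folded clients. Separate members serve the cytosol, the endoplasmic reticulum and the mitochondria, while small heat shock proteins hold unfolded proteins without ATP. Some members are made at all times, whereas others, such as Hspa1a and Hspa1b, are induced by heat and other protein stress through the factor HSF1. Neurons also use DnaJ proteins at synapses, where Dnajc5 protects vesicle proteins and Dnajc6 removes clathrin coats.

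The sections were coronal cryosections of brains of male p16-3MR mice aged 9 to 10 months, measured on Visium slides, whose spots of about 55 µm each can hold several cells. In p16-3MR mice the promoter of p16 drives a fusion of a red fluorescent protein and a viral thymidine kinase, so that GCV (ganciclovir) kills only cells in which that promoter is active. All mice carried this transgene, the Control group included. The 2 Control sections came from mice given vehicle (DMSO and saline). The 2 PTX sections came from mice given paclitaxel, a drug that binds tubulin, at 5 mg/kg per day for 2 cycles of 5 days that lay 7 days apart. The 2 PTX+GCV and the 2 PTX+ABT263 sections came from mice that then received either GCV (daily 25 mg/kg) or the BCL-2 family blocker ABT263, a senolytic (daily 1.5 mg/kg), in 2 cycles of 5 days, 2 weeks apart. Brains were collected 6 months after PTX. No label says that the 2 sections of a group came from different mice, so the p-values measure only the spread between these sections.

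The 8 sections held 19870666 to 42886400 UMIs in 2346 to 2839 spots that passed the filters, and mitochondrial genes took 9.58 to 15% of them. Both PTX+ABT263 sections went against the label male. The X inactivation gene Xist held 754 and 695 UMIs there and at most 1 in any other section, and the Y-linked Ddx3y held 17 and 0 UMIs there against 711 to 1350 elsewhere. They are called the sections labelled PTX+ABT263 below, and results that rest on them carry that doubt. Marker genes of neurons, astrocytes, microglia, endothelium and each brain area were detected in every section, with no listed marker at 0. The summed level of 5 red blood cell markers was 328 and 338 UMIs per 1000000 (CPM) in the PTX sections, 91 and 58.9 CPM for Control, 59.3 and 41.9 for PTX+GCV and 109 and 6.48 for those labelled PTX+ABT263. Its part in the comparisons of groups was not tested.

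The 68 genes together took 0.811 to 0.997% of the UMIs of a section. Most of these UMIs came from a few genes. The constitutive cytosolic Hsp70 gene Hspa8 held 549881 UMIs, 22.8% of the total of the family, and the cytosolic Hsp90 genes Hsp90ab1 and Hsp90aa1 held 13.2 and 11.7%. The 10 genes with most UMIs, which also included Dnaja1, the mitochondrial Hsp10 gene Hspe1, the Hsp110 gene Hsph1, the endoplasmic reticulum chaperones Hsp90b1 and Hspa5, Dnaja2 and Dnajb6, took 67.7%. By role, the 2 cytosolic Hsp90 genes held 24.9% and the 6 cytosolic Hsp70 genes 24%, while 10 DnaJ genes of classes A and B of the cytosol and nucleus held 12.2%. The 9 mitochondrial members held 10.9%, the 10 of the endoplasmic reticulum 8.77% and the 5 small heat shock proteins 0.401%. These are shares of counted molecules and are not divided by gene length.

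The spots were grouped into 12 areas by clustering them without any of these genes among the variable features. Of these, 10 areas carry the name of the brain structure whose markers led them. The other 2 went unnamed and are called by a leading gene, the Ccn3 cluster and the Ucn3 cluster. A gene was counted as higher in an area when its CPM there were at least 1.5 times those in the rest of the same section in all 8 sections, and as lower when they were at most 1/1.5 of them in all 8. Since the areas were made from the same spots these counts are a description, with no test. Counted genes were picked by these ratios, so levels that do not overlap between an area and the rest follow largely from the rule. In any area, more cells of a type and more RNA per cell cannot be told apart. Of 816 pairs of a gene and an area, 25 were higher and 30 lower. The pairs came from 19 genes that were higher and 16 that were lower in at least 1 area, and 42 genes met neither condition anywhere. Of 15694 genes counted in the same way, 1.34% (habenula) to 6.51% (choroid plexus) were higher in an area. From 3.03% (meninges) to 17.6% (choroid plexus) of them were lower. How many of all genes met neither condition anywhere was not counted. The totals of the family therefore cannot be read as a trait that sets it apart.

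**Figure D1:**
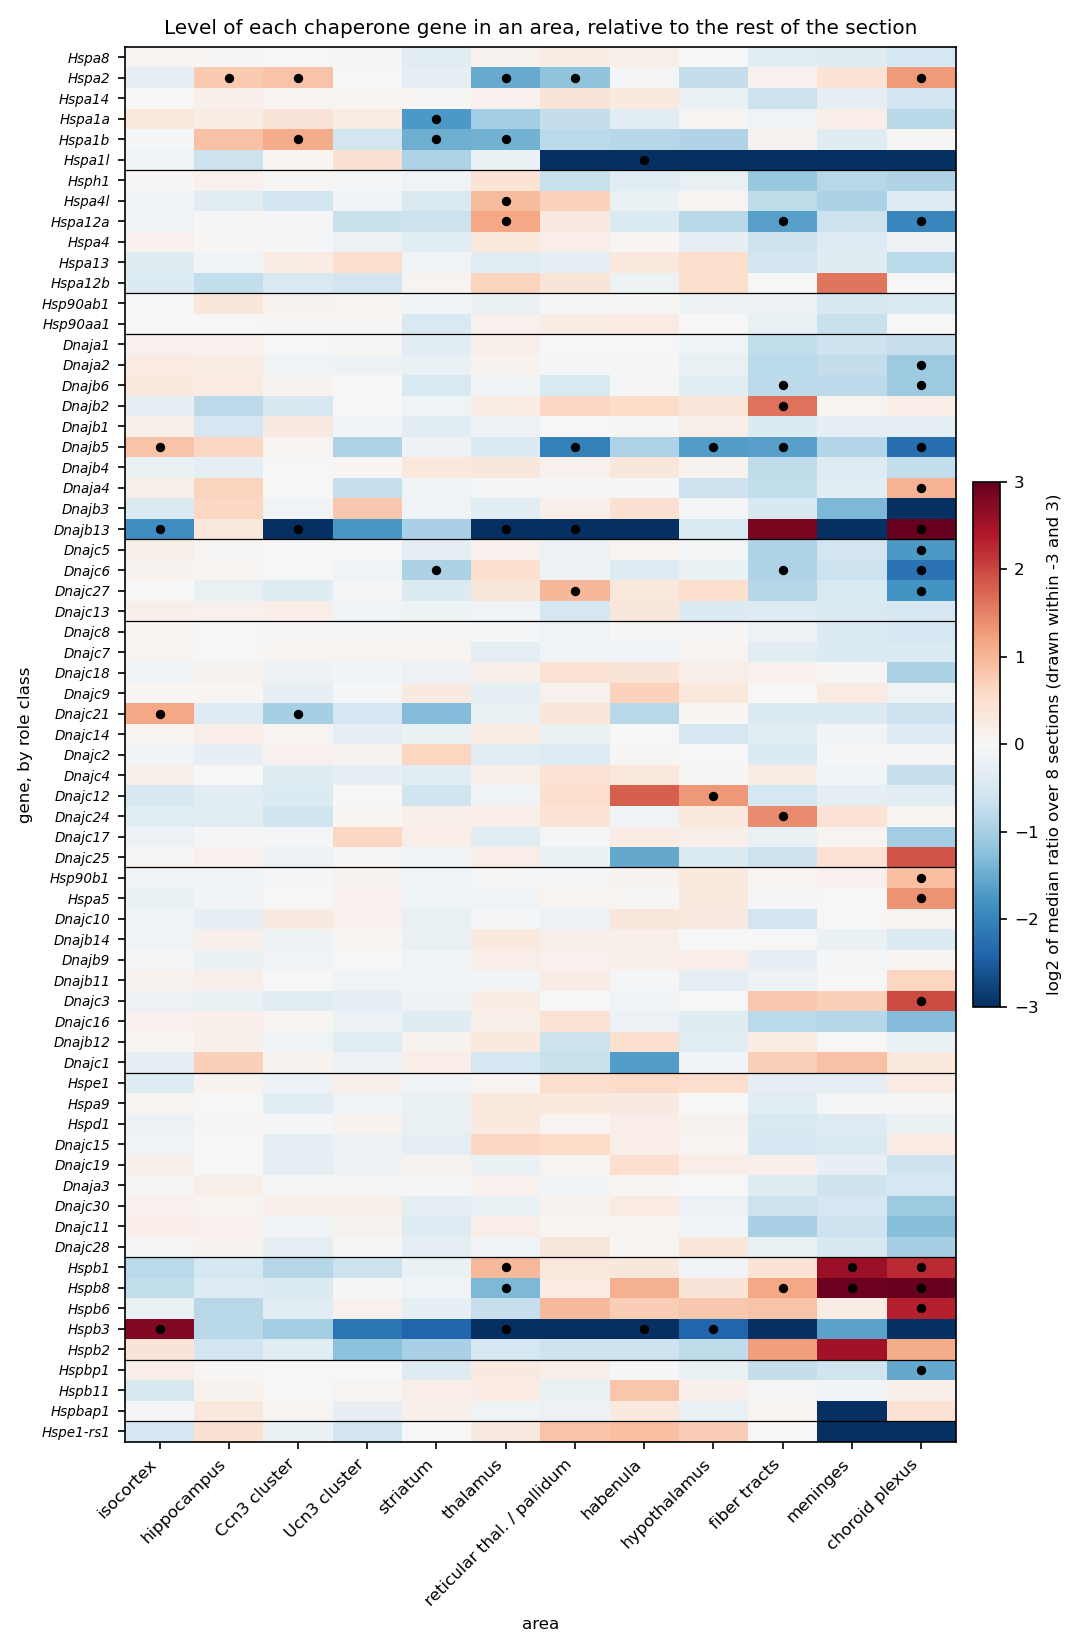
Level of each heat shock protein and DnaJ gene (rows, grouped by role) in 12 areas (columns), as the log2 of the median over 8 sections of the ratio of CPM in the area to CPM in the rest of the section, with the colour scale cut at both ends and ratios of 0 drawn at the lower end. Most cells are near a ratio of 1, and the choroid plexus column holds both high ratios, such as 10.5 for Hspb8, and low ones, such as 0.208 for Dnajb5.

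The members with neither pattern included Hspa8, Hsp90aa1, Hsp90ab1, Dnaja1, Hsph1, the mitochondrial Hspd1, Hspe1 and Hspa9, and Dnajb1, a DnaJ gene induced by heat that was named after its values were seen. The level of Hspa8 ran from a mean of 2330 ± 195 CPM (SD, n = 8 sections) in the reticular thalamus and pallidum to 1340 ± 230 in the choroid plexus, with 2260 ± 287 in the habenula next to the highest. These neighbouring levels lay within their spread. Hsp90ab1 was at 1440 ± 146 CPM in the hippocampus and 842 ± 134 in the meninges. Hsp90aa1 was at 1220 ± 170 CPM in the reticular thalamus and pallidum and 644 ± 120 in the meninges. Hspe1, the mitochondrial co-chaperonin, ranged from 405 ± 57.1 CPM in the habenula to 224 ± 14.6 in the isocortex. Its partner Hspd1, or Hsp60, ranged from 185 ± 46.6 in the habenula to 117 ± 23 in the meninges.

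The choroid plexus, the epithelium that secretes cerebrospinal fluid, showed the most pairs. It held 22 to 46 spots in a section, and 9 members were higher and 8 lower there. Of all 15694 genes with 100 or more UMIs, 6.51% were higher and 17.6% lower in this area. Dnajb13 reached the limit of 100 UMIs only through the choroid plexus, which held 56 of its 133 UMIs. Its counts there, and as lower in other areas, therefore say nothing about the family. The higher ones were 3 members of the endoplasmic reticulum, 3 small heat shock proteins, Hspa2, Dnaja4 and Dnajb13. The calls of Dnaja4 (higher), Dnaja2 and Dnajb6 (both lower) were lost with TMM factors between area and rest. Hspa5, or BiP, the main Hsp70 of the endoplasmic reticulum, was at 383, 569, 510, 687, 562, 712, 459 and 421 CPM in the choroid plexus of Control, PTX, PTX+GCV and the sections labelled PTX+ABT263, in that order with 2 sections each. In the rest of these sections it was at 191, 210, 203, 243, 205, 273, 190 and 169 CPM. The lowest choroid plexus level lay above the highest level elsewhere, and the median ratio was 2.56.

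Hsp90b1, or Grp94, the Hsp90 of the endoplasmic reticulum, had a lowest, median and highest level of 354, 476 and 579 CPM in the choroid plexus and of 225, 246 and 282 in the rest. Its median ratio was 1.86, and with totals counted without mitochondrial genes the lowest ratio fell to 1.48, under the limit. Dnajc3, or p58IPK, a DnaJ protein of the same compartment named after its values were seen, stood at 108, 130 and 187 CPM against 29.9, 35.7 and 38.5, a median ratio of 3.91. For all 3 genes the levels in the choroid plexus and in the rest did not overlap across the 8 sections, which follows largely from how they were picked. The other 7 members of the endoplasmic reticulum did not meet the condition, for example Dnajb11, another partner of Hspa5, with a median ratio of 1.56, and Dnajc16 with 0.409. Of 19 genes of the unfolded protein response outside the family, 4 were higher there, namely Pdia4 (median ratio 3.92), Manf (2.71), Creld2 (2.67) and Sdf2l1 (2.41), and none was lower.

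The promoters of Hspa5, Hsp90b1 and Dnajc3 are shown because of 55 members with a RefSeq promoter these 3 were the ones that held the endoplasmic reticulum stress element, read as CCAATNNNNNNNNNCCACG on either strand. Each window runs from 250 bases before to 50 bases after an annotated gene start of GRCm38.p6, and capitals mark the element. The element stood in 39 of 32851 promoter windows of all genes (0.119%) and in 3 of 72 windows of members. In Hspa5 it began at position -65 from the start and in Dnajc3 at -105, and in Hsp90b1 the first of 2 matches began at -212. A match is a description of letters, not a measured binding site.
Hspa5, chr2:34771840-34772139, plus strand: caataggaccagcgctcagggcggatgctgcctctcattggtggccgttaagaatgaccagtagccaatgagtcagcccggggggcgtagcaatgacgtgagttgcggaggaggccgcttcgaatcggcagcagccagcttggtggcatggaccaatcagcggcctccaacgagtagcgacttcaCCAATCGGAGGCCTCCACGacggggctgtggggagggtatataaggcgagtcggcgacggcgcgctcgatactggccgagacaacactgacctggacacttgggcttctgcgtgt
Hsp90b1, chr10:86705395-86705694, minus strand: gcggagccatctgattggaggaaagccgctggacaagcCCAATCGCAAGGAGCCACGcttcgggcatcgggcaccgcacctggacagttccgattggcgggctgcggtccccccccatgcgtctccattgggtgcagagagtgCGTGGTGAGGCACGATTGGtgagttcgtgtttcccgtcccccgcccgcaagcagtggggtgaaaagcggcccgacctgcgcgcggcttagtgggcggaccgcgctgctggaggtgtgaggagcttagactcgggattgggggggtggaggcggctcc
Dnajc3, chr14:118937682-118937981, plus strand: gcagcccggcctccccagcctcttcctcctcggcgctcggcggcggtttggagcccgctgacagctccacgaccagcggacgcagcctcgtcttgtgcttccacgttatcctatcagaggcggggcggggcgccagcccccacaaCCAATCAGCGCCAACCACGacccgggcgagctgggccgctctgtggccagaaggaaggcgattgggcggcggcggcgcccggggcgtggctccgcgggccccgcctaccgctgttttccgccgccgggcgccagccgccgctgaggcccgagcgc

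Among the small heat shock proteins, Hspb8 acts with Bag3 in the removal of misfolded proteins. Hspb8 was at 63.1 to 94.7 CPM in the choroid plexus, on 9 to 46 UMIs a section. In the rest it was at 6.33 to 8.11, a median ratio of 10.5. It was also higher in the meninges (median ratio 7.65) and the fiber tracts (2.25), and lower in the thalamus (0.39). Hspb1, or Hsp27, which binds actin and unfolded proteins, was higher in the choroid plexus (median ratio 4.71), the meninges (5.95) and the thalamus (1.96). Hspb6, or Hsp20, known from smooth muscle, was higher in the choroid plexus alone, at 15.4 to 58.6 CPM against 5.49 to 9.27. Its levels in the choroid plexus rested on 3 to 39 UMIs a section. In the meninges, Hspb1 and Hspb8 were the 2 members counted as higher and none was lower. Of all genes, 4.47% were higher and 3.03% lower there. Every listed marker of vessel smooth muscle and of red blood cells was also raised in the spots called meninges. These calls therefore cannot be assigned to meningeal tissue alone, and the part of vessels in them was not tested. The partner Bag3 was higher in the choroid plexus (median ratio 3.96), the meninges (3.49) and the fiber tracts (3.23), where Hspb8 was too, and also in the reticular thalamus and pallidum (2.33).

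Hspb3, a small heat shock protein known from muscle, had a different place. It was at 4.54 to 8.18 CPM in the isocortex and 0.572 to 1.25 in the rest, a median ratio of 6.82 over 538 UMIs, and it was lower in the thalamus, hypothalamus and habenula. In the habenula it held 0 UMIs where 6.96 were expected from the rest of the sections, so its level there had little depth behind it. Within the isocortex, whose upper and deep layers formed separate clusters, Hspb3 was 2.77 times (median of 8 sections) as high in the upper as in the deep layers. Dnajb13, a DnaJ protein of cilia and sperm flagella, held 56 of its 133 UMIs in the 240 choroid plexus spots. Its level there was 9.28 to 35.1 CPM, against 0.159 to 0.477 in the rest, on 2 to 13 UMIs a section. It was counted as lower in the Ccn3 cluster, the thalamus, the reticular thalamus and pallidum and the isocortex, but only in the isocortex were 30 or more UMIs expected, and in the reticular area it held 0 UMIs where 1.85 were expected.

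The 8 members lower in the choroid plexus were 11.8% of the family, beside 17.6% of all genes. Of the 4 DnaJ genes of vesicles and endosomes they included Dnajc5, Dnajc6 and Dnajc27 but not Dnajc13. Dnajc5, the cysteine string protein, was at 27.8 to 105 CPM there and 172 to 201 in the rest, a median ratio of 0.304. Dnajc6, or auxilin, had a ratio of 0.217 and was also lower in the striatum (0.515) and the fiber tracts (0.526), where the call was lost with TMM factors, as was that of Dnajb6. Dnajc27, which carries a small GTPase domain, had a ratio of 0.288 in the choroid plexus and was higher in the reticular thalamus and pallidum, at 124 to 165 CPM against 63.5 to 76.6. That area held 1 member counted as higher and 3 as lower, with 2.37 and 9.66% of all genes.

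**Figure D2:**
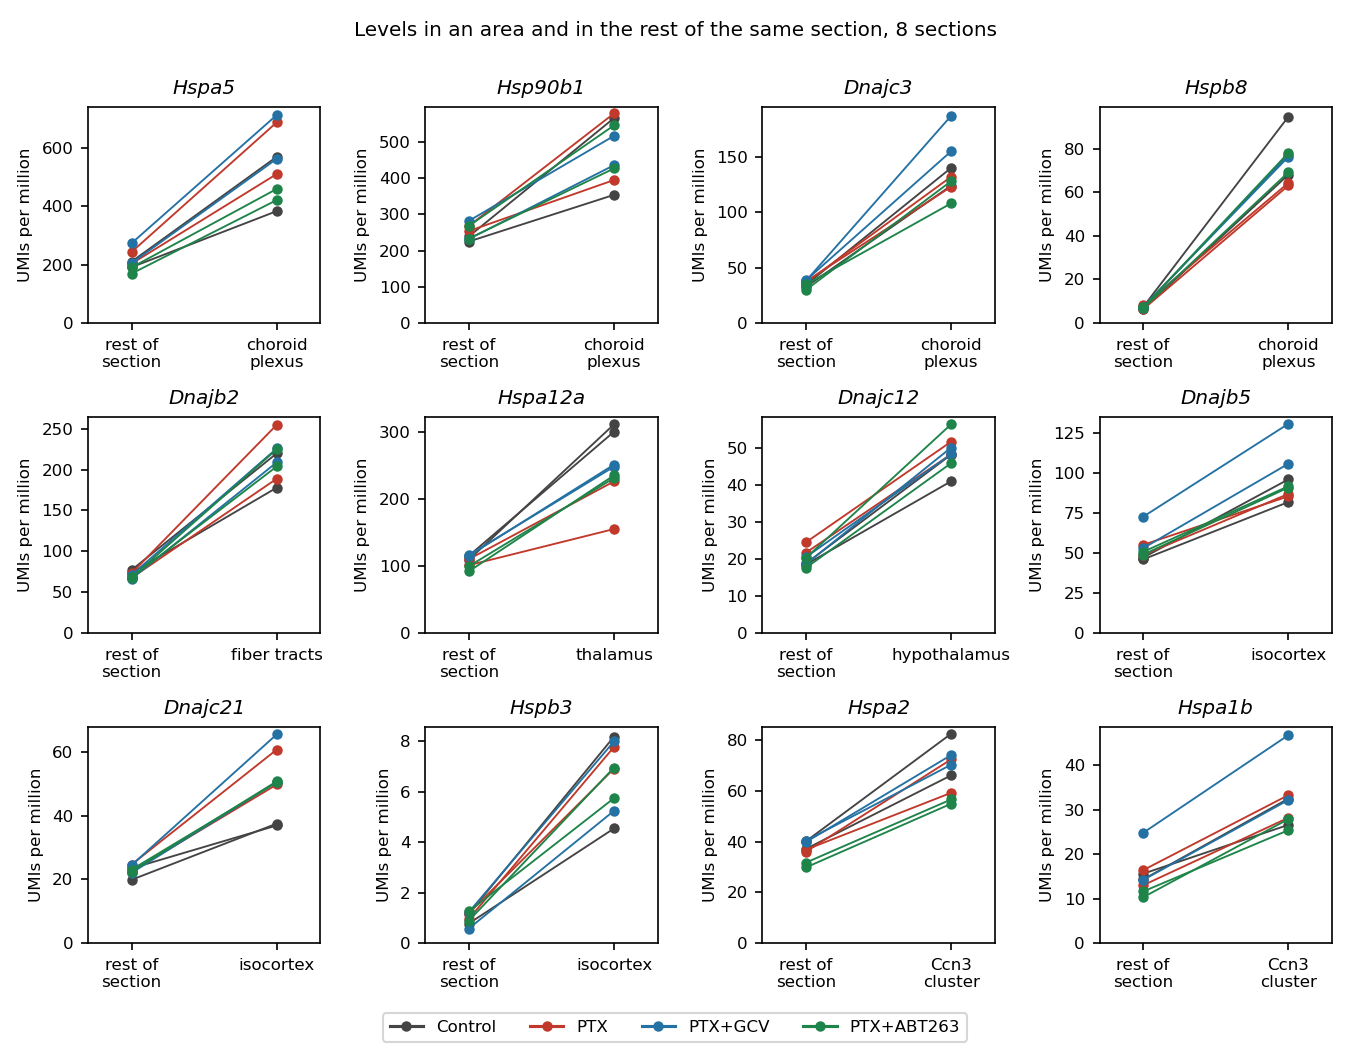
CPM of 12 members in an area and in the rest of the same section, 1 line per section, coloured by group. The members shown were picked from those counted as higher in the area, so all 8 lines in each panel rise by the rule. For Dnajb2 in the fiber tracts they rise from 66.5 to 77.1 up to 178 to 255 CPM.

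In the fiber tracts 3 members were higher and 4 lower, with 6.03 and 11.3% of all genes. Dnajb2, a DnaJ protein that passes ubiquitinated clients to the proteasome, was at 178, 215 and 255 CPM (lowest, median and highest section) in the fiber tracts and 66.5, 69.5 and 77.1 in the rest. All 8 fiber tract levels lay above all 8 of the rest, and the median ratio was 3.07. Dnajc24, a factor for the modification of elongation factor 2, had a median ratio of 2.66. The small heat shock protein gene Cryab, which the symbol rule does not take in, was at 1510 to 2530 CPM in the fiber tracts, 7.5 times the rest. Fiber tract spots were shallow, with a median of 2605.5 UMIs, and members took 0.703% of their UMIs.

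The thalamus held 3 higher and 5 lower members, with 4.36 and 8.98% of all genes. Hspa12a, a divergent Hsp70, had thalamic levels of 311 and 300 CPM (Control), 226 and 155 CPM (PTX), 251 and 248 CPM (PTX+GCV) and 231 and 235 CPM (labelled PTX+ABT263). In the rest of the sections it lay between 91.8 and 116 CPM, below every thalamic value. Hspa4l, an Hsp110 relative, was at 180 to 270 CPM in the thalamus and 102 to 120 in the rest. Its mean of 218 ± 26.3 CPM (SD, n = 8 sections) in the thalamus lay within the spread of that in the reticular thalamus and pallidum, 198 ± 26.6. On the other side, Hspa2, an Hsp70 best known from the testis, was at 11.5 to 19.3 CPM in the thalamus and 36.9 to 57.2 elsewhere.

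Hspa2 was higher in the Ccn3 cluster (median ratio 1.81), the choroid plexus (2.42) and the hippocampus (1.72), and lower in the reticular thalamus and pallidum (0.434). Its calls in the hippocampus and choroid plexus were lost when totals left out mitochondrial genes, with lowest ratios of 1.47 in both. Hspa1b was higher in the Ccn3 cluster, at 25.4 to 46.8 CPM against 10.3 to 24.8 in the rest of each section, and lower in the thalamus (median ratio 0.374) and striatum (0.365). The Ccn3 cluster held 2 higher and 2 lower members, with 1.48 and 4.72% of all genes. Hspa1a differs from Hspa1b by few bases in its coding part, so reads of the pair may be split with error. It was lower in the striatum (0.302) and was counted in no other area. The striatum held 0 higher and 3 lower members, with 1.89 and 5.95% of all genes, and the hippocampus 1 and 0, with 3.26 and 6.02%.

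In the isocortex 3 members were higher and 1, Dnajb13, was lower, with 3.1 and 6.44% of all genes. Dnajb5, a DnaJ protein that reaches the nucleus and acts on histone deacetylase 4, was at 82, 91.5 and 131 CPM (lowest, median, highest) in the isocortex and 46.1, 49.9 and 72.8 in the rest. Dnajb5 was as high in the hippocampus, with a mean of 101 ± 13.9 CPM (SD, n = 8 sections) against 96.2 ± 15.7 in the isocortex. It was lower in 4 areas, with median ratios of 0.208 in the choroid plexus, 0.247 in the reticular thalamus and pallidum, 0.312 in the hypothalamus and 0.321 in the fiber tracts. Dnajc21, a factor of ribosome assembly, had a median ratio of 2.24 in the isocortex and 0.5 in the Ccn3 cluster. Like Hspb3 it was higher in upper than in deep layers of the isocortex, 1.72 times, and these 2 were the members so counted, with 1.37 and 1.72% of all genes higher and lower.

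In the hypothalamus Dnajc12, a partner of aromatic amino acid hydroxylases, was the 1 member counted as higher, at 41 to 56.4 CPM against 17.6 to 24.5, and 2 were lower, with 2.83 and 6.9% of all genes. The habenula held 0 higher and 2 lower members, with 1.34 and 5.98% of all genes, Hspb3 and Hspa1l, on 6.96 and 0.937 expected UMIs. In the Ucn3 cluster no member met either condition, against 1.68 and 3.7% of all genes. Dentate gyrus and CA spots were told apart at a finer clustering. Between them, Hsp90aa1 was lower in the dentate gyrus, at 597 to 850 CPM against 1240 to 1460, as was Hspa1b (median ratio 0.465). No member was higher and these 2 were lower, with 3.25% of all genes higher and 2.19% lower.

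**Figure D3:**
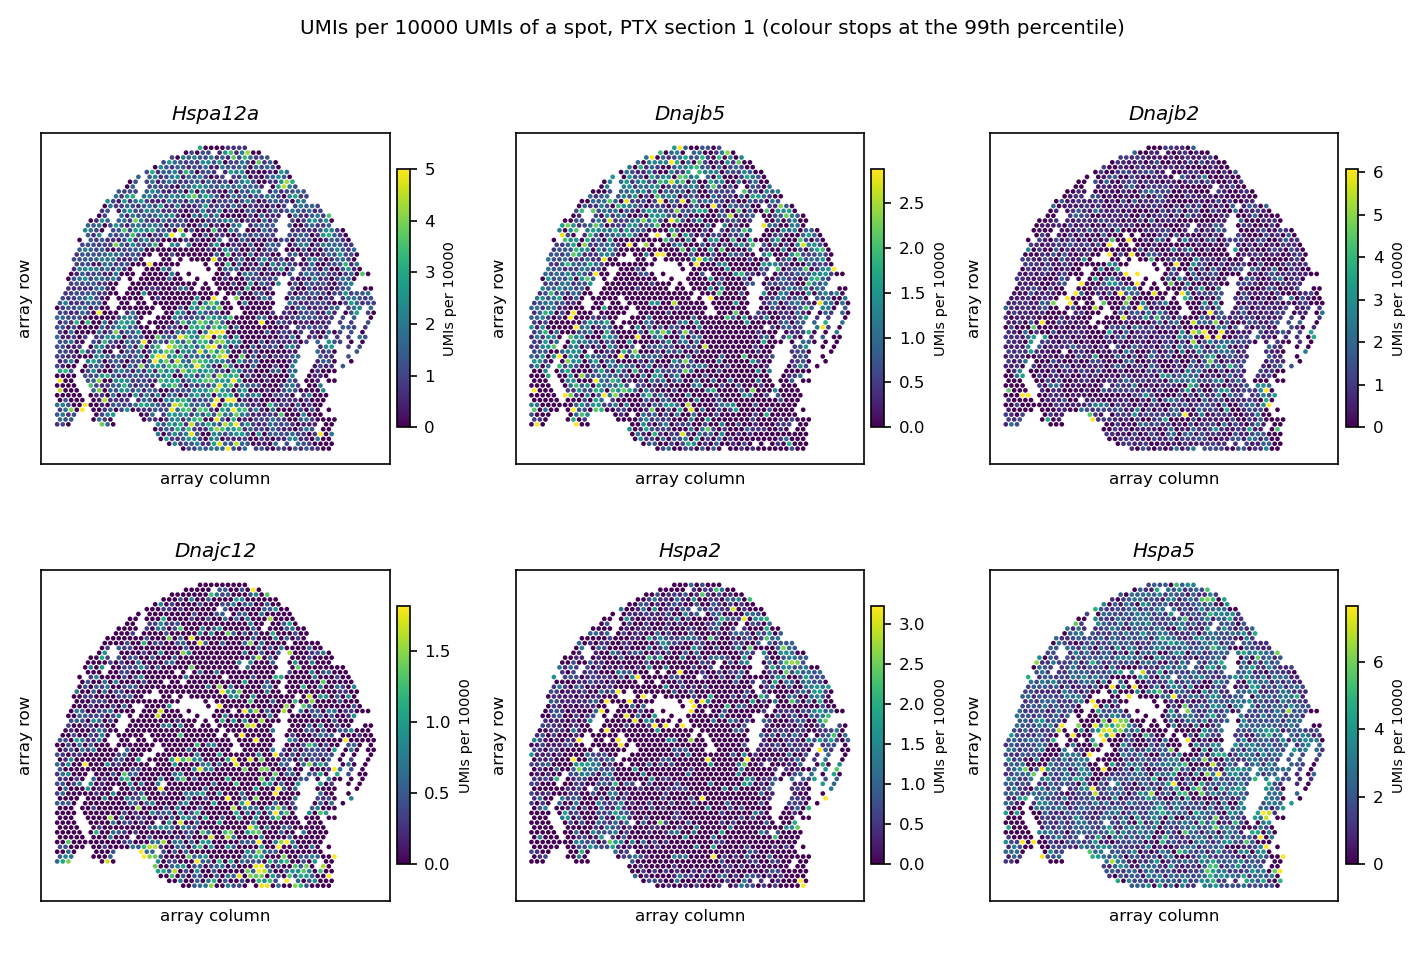
UMIs of 6 members per 10000 UMIs of each spot in the first PTX section, at the array row and column of the spot, with the colour scale ending at the 99th percentile. In this section Hspa5 was at 510 CPM in the choroid plexus and 203 in the rest, and Dnajb2 at 189 in the fiber tracts and 67.5 in the rest.

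The 68 genes were then compared between groups over whole sections, to ask whether PTX and the removal of senescent cells changed chaperone expression. The fit was edgeR's quasi-likelihood test over 16671 genes with Benjamini-Hochberg adjustment, and no member passed an adjusted p of 0.05 in any of the comparisons. In PTX against Control 0 members passed (0.126% of all genes did), 0 passed in DESeq2 (0.876% of all genes), and 11 had an unadjusted p under 0.05 (13.5% of all genes). In PTX+GCV against PTX 0 passed (0.024% of all genes) and 5 had an unadjusted p under 0.05 (10.7%). In the sections labelled PTX+ABT263 against PTX 0 passed (0.138% of all genes) and 4 had an unadjusted p under 0.05 (11.8%). DESeq2 called 0 in both (0.474 and 0.66% of all genes). The test of any difference among the 4 groups called 0 members (0.498% of all genes), with 13 at an unadjusted p under 0.05 (16.2%), and DESeq2 called 0 (2.9%). The PTX group enters all 3 pairwise comparisons, so their values are not independent.

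The median log2 fold change of the members was 0 in PTX against Control, 0.02 in PTX+GCV against PTX and 0.02 in the sections labelled PTX+ABT263 against PTX, and that of all genes was 0.01, 0 and 0. The median standard error of a member was 0.08 in each. Hspa8 was at 1740 and 1940 CPM (Control), 1900 and 2100 CPM (PTX), 1980 and 2380 CPM (PTX+GCV) and 1970 and 1860 CPM (labelled PTX+ABT263). The groups overlapped, and the log2 fold change of PTX against Control was 0.06 with a standard error of 0.09 (edgeR adjusted p = 0.814). Hsp90aa1 was at 914 and 987 CPM (Control), 1010 and 1040 CPM (PTX), 972 and 1180 CPM (PTX+GCV) and 1070 and 956 CPM (labelled PTX+ABT263). Its PTX values lay above both Control values, with a log2 fold change of 0.06 ± 0.09 (SE, edgeR adjusted p = 0.817).

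**Figure D4:**
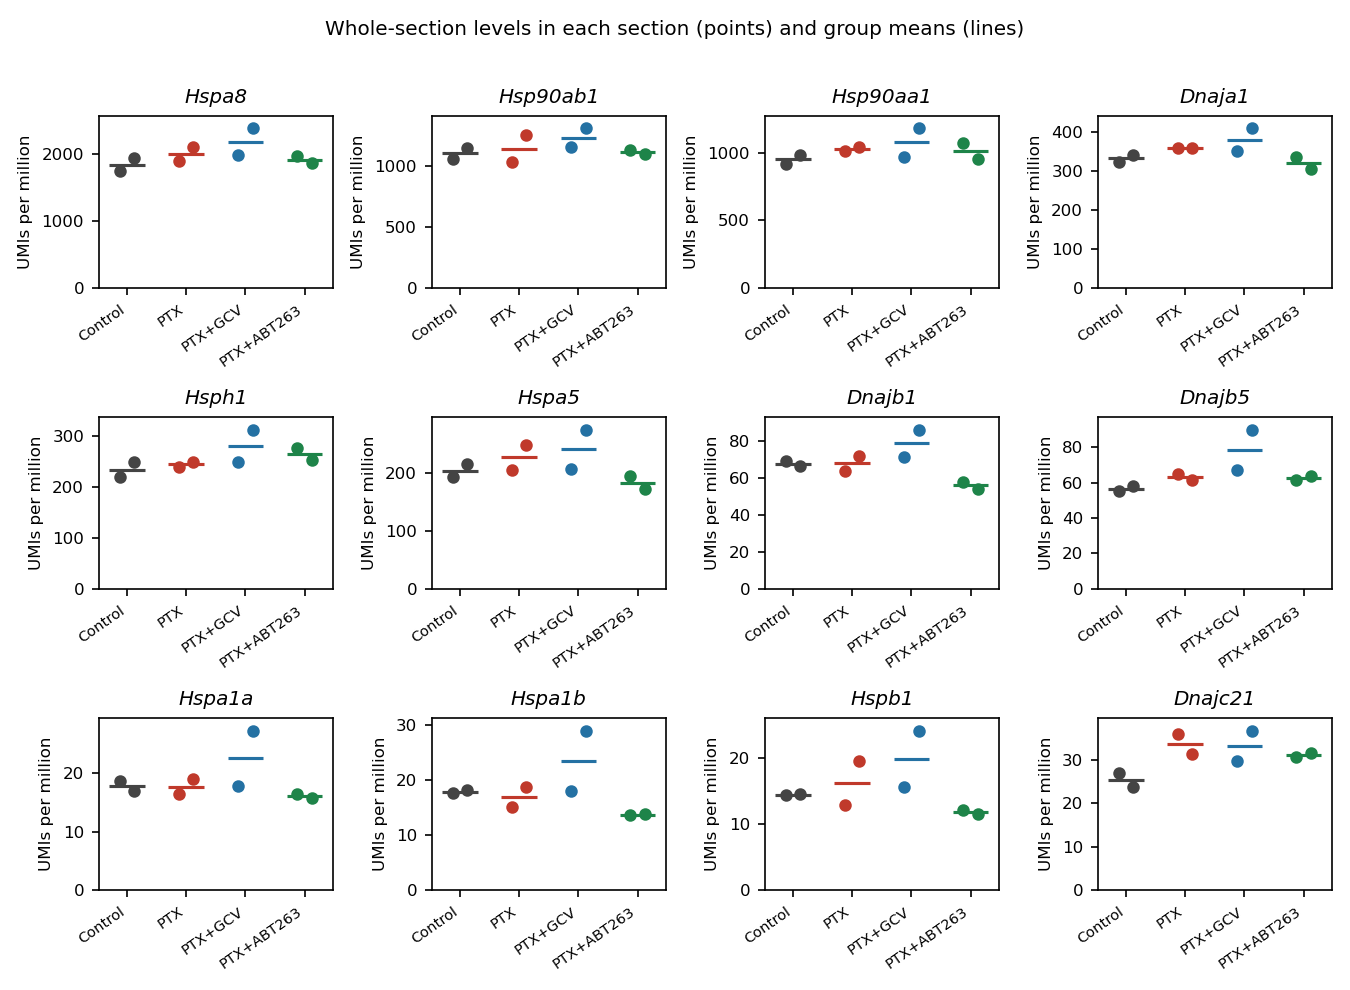
CPM of 12 members over the whole section, 1 point per section and a line at the mean of each group of 2. The second PTX+GCV section is the highest point in all 12 panels, for example at 2380 CPM for Hspa8 and 28.9 CPM for Hspa1b.

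Some members varied more between sections than the family as a whole. The ratio of the highest to the lowest section had a median of 1.25 over the 57 members with 2000 or more UMIs and 1.27 over 10341 genes with as many. Hspa1b had a ratio of 2.13, Hspb1 of 2.1, Hspa1a of 1.73, Dnajb5 of 1.63, Hspa5 of 1.6 and Dnajb1 of 1.59. In all 6 the highest value was in the second PTX+GCV section. That section held the highest CPM of 32 of the 68 members, 26 with totals without mitochondrial genes and 17 with TMM factors, and it had the lowest share of mitochondrial UMIs, 9.58%. The second section labelled PTX+ABT263, with the highest mitochondrial share of 15%, held the lowest CPM of 32 members, 25 without mitochondrial genes and 7 with TMM factors. How many of all genes had their highest or lowest CPM in these sections was not counted. These counts therefore cannot be read as a trait of the family.

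Hspa1b was at 17.5 and 18.2 CPM (Control), 15.1 and 18.7 CPM (PTX), 18 and 28.9 CPM (PTX+GCV) and 13.6 and 13.7 CPM (labelled PTX+ABT263). PTX+GCV and PTX overlapped, and the log2 fold change was 0.44 ± 0.16 (SE, edgeR adjusted p = 0.366). It was 0.09 without the second PTX+GCV section and 0.7 without the first, and 0.29 without the first PTX section. With no filter on low counts the adjusted p of Hspa1b was 4.82e-04 (edgeR), a setting that called 547 genes in this comparison. Hspa1a was at 18.7 and 16.9 CPM (Control), 16.4 and 19 CPM (PTX), 17.9 and 27.3 CPM (PTX+GCV) and 16.4 and 15.8 CPM (labelled PTX+ABT263). It showed the same single high section, and its log2 fold change of 0.32 became 0.01 without it and 0.56 without the first PTX+GCV section (edgeR adjusted p = 0.443, and 0.0326 with no filter). Dnajb5 was at 55.4 and 57.9 CPM (Control), 64.8 and 61.4 CPM (PTX), 67.2 and 90.1 CPM (PTX+GCV) and 61.3 and 63.7 CPM (labelled PTX+ABT263). Both PTX+GCV values lay above the others, and its log2 fold change of 0.28 ± 0.1 against PTX (edgeR adjusted p = 0.364, and 0.0216 with no filter) was 0.09 without the second PTX+GCV section, 0.44 without the first and -0.01 with equal weight for each area.

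Other members with a low unadjusted p in whole sections, some of them named after their values were seen, differed by small amounts. Hspa12a, the divergent Hsp70 of the thalamus, was at 133 and 147 CPM (Control), 127 and 107 CPM (PTX), 139 and 134 CPM (PTX+GCV) and 120 and 111 CPM (labelled PTX+ABT263). PTX lay below Control, with a log2 fold change of -0.31 ± 0.09 (SE, edgeR adjusted p = 0.179, and 0.00491 with no filter, which called 874 genes). It was -0.2 without the second Control or the second PTX section. The summed level of 13 thalamus markers was 1090 and 1330 CPM in Control and 984 and 754 in PTX. With equal weight for each area, and with the other changes of filter, scaling or model, the log2 fold change was -0.32 to -0.23. The part of the thalamus in this difference was not tested further. Hspb2, a small heat shock protein of muscle whose gene overlaps Cryab on the other strand, had a log2 fold change of 0.95 ± 0.29 (adjusted p = 0.195, edgeR, and 0.013 with no filter) on 479 UMIs in all. It was 0.64 without the first and 1.49 without the second Control section. Dnajc19, of the mitochondrial import motor, was 0.27 lower on the log2 scale in PTX+GCV than in PTX (log2 fold change -0.27 ± 0.08, edgeR adjusted p = 0.255, and 0.0246 with no filter), or -0.17 without the first PTX section. Dnajc1, an endoplasmic reticulum DnaJ protein, and Hsph1 had log2 fold changes of 0.39 ± 0.12 and 0.23 ± 0.1 in the sections labelled PTX+ABT263 against PTX (edgeR adjusted p = 0.24 and 0.372, and 0.0402 and 0.0761 with no filter, which called 712 genes).

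**Figure D5:**
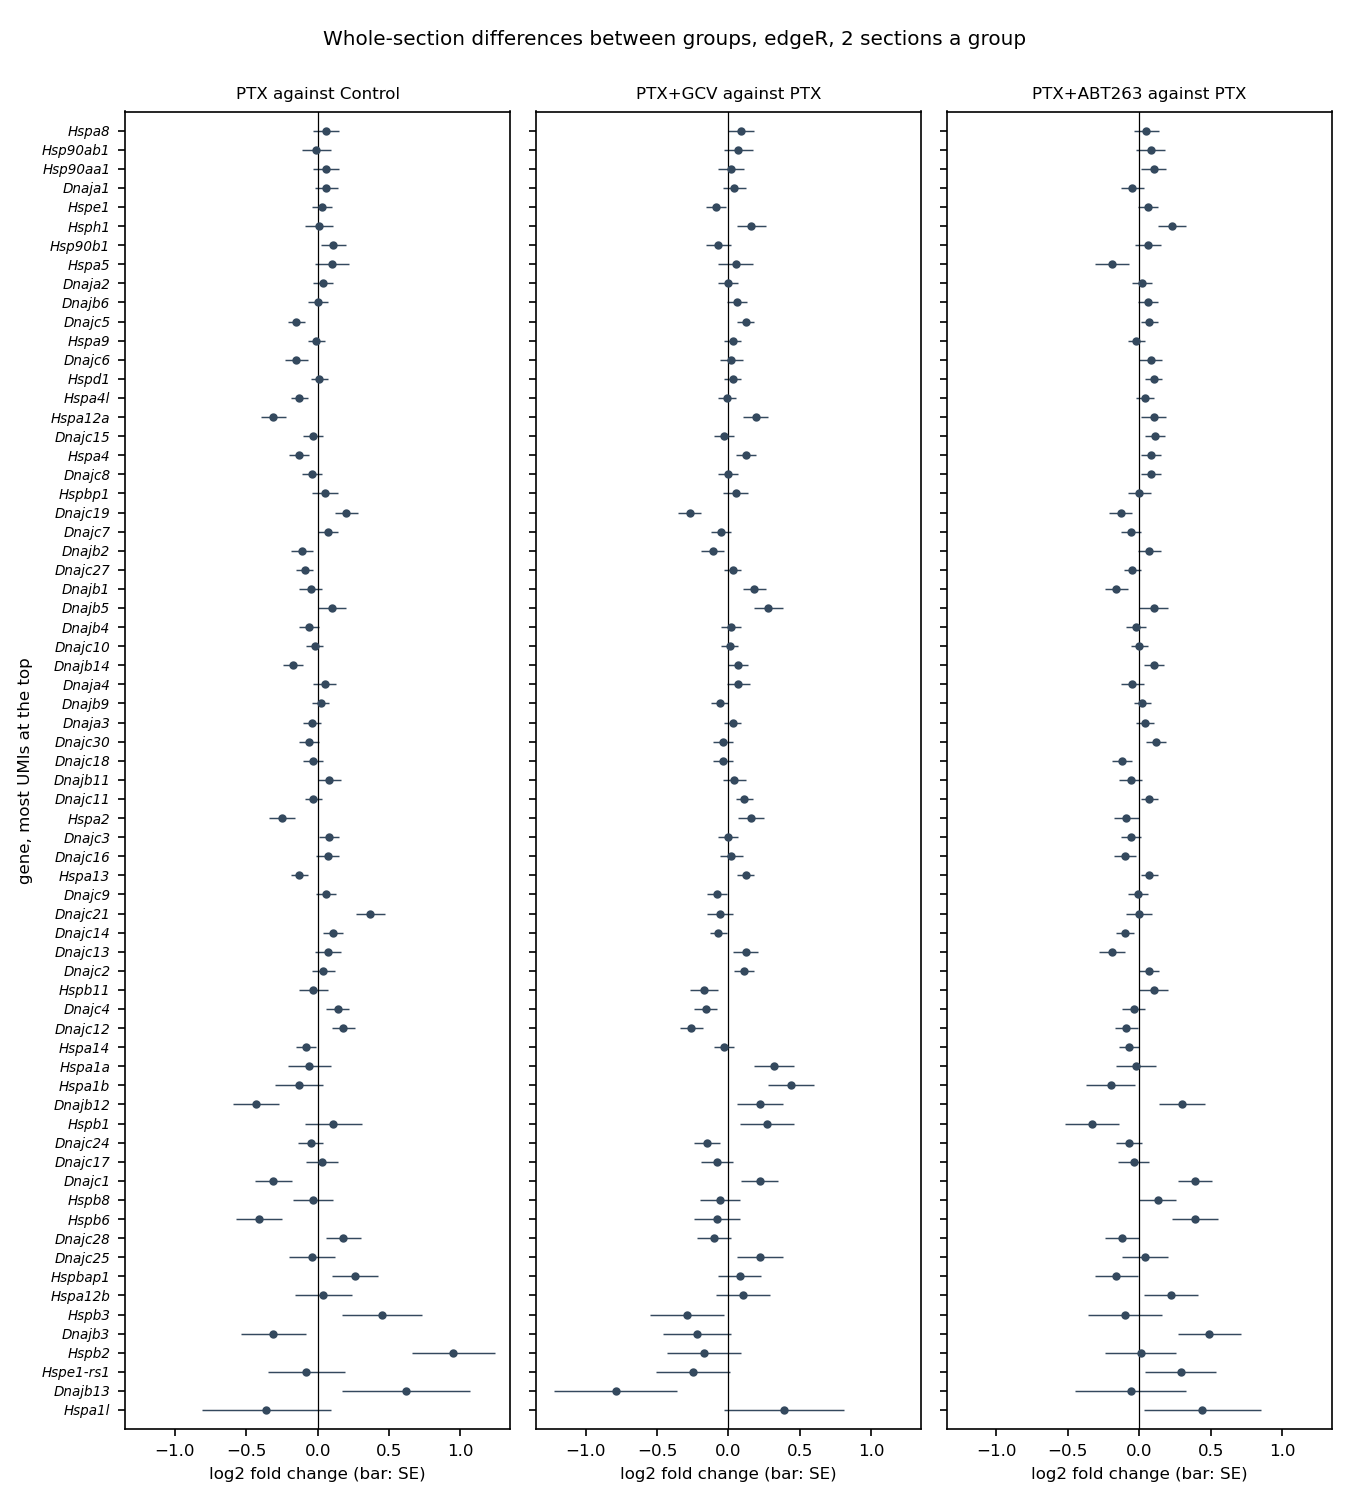
Log2 fold change of each member over whole sections (points) with its standard error (bars) in 3 comparisons of 2 sections a group, genes ordered by UMIs. No point passed an adjusted p of 0.05, and members with few UMIs at the bottom have the widest bars.

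In the isocortex, 66 members were tested over 14345 genes. No member passed in PTX against Control (0.425% of all genes did), in PTX+GCV against PTX (0.0279%) or in the sections labelled PTX+ABT263 against PTX (0.251%). There were 8, 6 and 3 members at an unadjusted p under 0.05, with 12.5, 6.87 and 11% of all genes, and DESeq2 called 1, 0 and 0 (0.753, 0.0279 and 0.223% of all genes). Dnajc21, which assembles the large ribosomal subunit, came nearest to the threshold. It was at 37 and 37.6 CPM (isocortex of Control), 60.9 and 49.9 CPM (PTX), 50.7 and 65.7 CPM (PTX+GCV) and 50.9 and 50.6 CPM (labelled PTX+ABT263). All 6 sections of PTX treated mice lay above both Control sections. The log2 fold change of PTX against Control was 0.56 ± 0.12 (SE, edgeR adjusted p = 0.0626).

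This result sat at the edge of the threshold. The adjusted p for Dnajc21 was 0.0393 with total counts in place of TMM factors, 1.18e-04 with no filter on low counts and 0.025 in DESeq2. It was 0.0381 without the first and 0.0341 without the second PTX+GCV section. Without the first PTX section the log2 fold change was 0.41 with an adjusted p of 0.465. In the rest of the sections Dnajc21 was at 23.5 and 19.9 CPM in Control and 24.7 and 22.5 in PTX. The difference between the PTX effect in the isocortex and that in the rest was 0.5 ± 0.15 on the log2 scale (limma adjusted p = 0.62), and no gene of 14302 passed that test (0%), with 6 of 66 members and 7.24% of all genes at an unadjusted p under 0.05.

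Dnajb5, with the lowest p of PTX+GCV against PTX in the isocortex, was at 82 and 96.2 CPM (Control), 85.6 and 87.1 CPM (PTX), 106 and 131 CPM (PTX+GCV) and 91.1 and 91.9 CPM (labelled PTX+ABT263). Both PTX+GCV values were the highest, with a log2 fold change of 0.41 ± 0.1 (edgeR adjusted p = 0.349), or 0.26 without the second PTX+GCV section. In the fiber tracts, PTX against Control gave 0 of 58 tested members (0.021% of all genes), with 0 at an unadjusted p under 0.05 (4.07% of all genes) and 0 in DESeq2. In the hippocampus it gave 0 of 62 (0.0334% of all genes), with 2 at an unadjusted p under 0.05 (3.75%) and 0 in DESeq2. The median standard error of a member was 0.28 for fiber tracts and 0.17 for hippocampus, against 0.11 in the isocortex, so a difference of the size seen for Dnajc21 had less depth behind it there.

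The heat shock element, to which HSF1 binds, was searched as GAANNTTCNNGAA on either strand. It stood in 198 of 32851 promoter windows of all genes (0.603%) and in 6 of 72 windows of members (8.33%), those of Hspd1, Hspe1, Hsph1 and Dnajb6. The windows of Dnajb6 overlap and hold the same match, as do those of Hsph1. Hspd1 and Hspe1 lie head to head, and their windows share the stretch with both matches, which overlap. The 6 windows therefore do not stand for 6 separate sites. One window is shown because it serves the pair Hspd1 and Hspe1, with capitals over the matches. Hspa1a and Hspa1b had a promoter to search but no match to these letters. For 13 members, Hspa8, Hsp90aa1 and Hsp90ab1 among them, there was no promoter to search. The log2 fold changes of PTX against Control in whole sections were 0.01 for Hspd1, 0.03 for Hspe1, 0.01 for Hsph1 and 0 for Dnajb6.
Hspe1, chr1:55087898-55088197, plus strand: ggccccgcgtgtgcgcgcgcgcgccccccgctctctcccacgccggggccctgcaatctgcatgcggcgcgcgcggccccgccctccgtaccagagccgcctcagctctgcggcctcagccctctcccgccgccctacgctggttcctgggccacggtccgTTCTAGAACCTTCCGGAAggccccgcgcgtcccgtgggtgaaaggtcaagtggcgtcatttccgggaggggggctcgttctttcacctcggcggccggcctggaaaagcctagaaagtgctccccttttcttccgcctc

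Genes that work with these chaperones were counted from lists that the symbol rule does not cover. Of 32 tested heat shock factors and co-chaperones, 14 chaperonin and prefoldin genes and 20 genes of the unfolded protein response, none passed in edgeR in any whole-section comparison, and the median log2 fold changes of PTX against Control were 0.01, 0.02 and 0.08. In PTX against Control 0.126% of all genes passed. There 5 of 32, 1 of 14 and 3 of 20 listed genes had an unadjusted p under 0.05, beside 13.5% of all genes. Rbm3, an RNA-binding protein induced by cold, was 1 of 2 cold-induced genes and did pass. It was at 145 and 124 CPM (Control), 137 and 122 CPM (PTX), 149 and 129 CPM (PTX+GCV) and 72.6 and 72.3 CPM (labelled PTX+ABT263). Those 2 sections lay below the other 6, and Rbm3 fell by 0.72 on the log2 scale against PTX (SE 0.1, edgeR adjusted p = 0.0105). Cirbp, the other cold-induced gene, was at 58.2 and 60.3 CPM there and 79.5 to 98.4 elsewhere, and did not pass.

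Of 10 immediate early genes, which neurons switch on within minutes of activity, 5 fell in the isocortex of PTX against Control (edgeR adjusted p, 0.425% of all genes passed) and 9 had an unadjusted p under 0.05 (12.5% of all genes). In whole sections 0 of the 10 passed in PTX against Control, with 6 at an unadjusted p under 0.05, and 0 passed in the test of the isocortex against the rest, with 1. In the isocortex Fosb fell by 0.9 on the log2 scale (SE 0.13, adjusted p = 0.00975, edgeR), and Junb, Arc, Npas4 and Jun fell by 1.04, 0.68, 1.38 and 0.57. Whole-section levels of Junb were 128 and 84.8 CPM (Control), 79.6 and 60 CPM (PTX), 63.1 and 66.7 CPM (PTX+GCV) and 48 and 47.9 CPM (labelled PTX+ABT263). The Control sections also differed for Arc, at 164 and 102 CPM against 124 and 107 in PTX. For Npas4 they were at 35.7 and 17.7 CPM against 16.3 and 12.5 in PTX. Egr1, another of the 10, went the other way in whole sections, at 220 and 233 CPM in Control and 279 and 265 in PTX. Of the 66 chaperone genes tested in the isocortex of PTX against Control, edgeR called 0 and DESeq2 called 1, Dnajc21.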

How the data were processed

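Gene expression was measured with Visium in 8 brain sections, 2 in each of 4 groups. UMI counts per gene and spot were deposited by the authors as filtered matrices, made with Space Ranger (version 1.2.1 in the file headers) on mm10, and the submitters' processing notes also name Seurat 4.0. Spots were kept with at least 200 genes and at most 30% of UMIs from mitochondrial genes. Spots were clustered in Seurat 5.3.0 (2000 variable features without the members, 20 principal components, resolution 0.15) and clusters were named from marker lists. For groups, UMI counts were summed per section and area and tested in R 4.3.3 with edgeR 4.0.16 (quasi-likelihood, TMM factors, filterByExpr, all 4 groups in 1 fit, Benjamini-Hochberg over all genes). DESeq2 1.42.0 was an alternative. The PTX effect in the isocortex against the rest was tested with limma 3.58.1 on log2 CPM (prior count 2). The scripts were tested on simulated data.

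The 68 members and the gene lists were chosen with earlier results of these data known. Genes named were the 10 members with most UMIs, up to 4 with most UMIs in each role, in each area the 3 with the highest and the 2 with the lowest median ratio among those counted, Hspa1a and Hspa1b as a near-identical pair, members that passed a test, and genes of other lists that passed. Dnaja4, Dnajb1, Dnajb11, Dnajc1, Dnajc3, Dnajc16, Dnajc19, Hspb2, and Cirbp and the genes of other lists without a call were named after their values were seen. Promoters came from RefSeq (GRCm38.p6, 250 bases before and 50 after the start) and matched 55 of 68 members. Section totals of 19870666 to 42886400 UMIs set the precision, and intervals cover the spread between sections only, which may be technical.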

Additional observations from a re-analysis of the deposited data

How the results depend on the processing

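Calls of members changed with the filter and the scaling, and the cause was not tested. With no filter on low counts, edgeR called 4 members in PTX against Control in whole sections (Dnajb12, Dnajc21, Hspa12a and Hspb2, of 874 genes called), 4 in PTX+GCV against PTX (Dnajb5, Dnajc19, Hspa1a and Hspa1b, of 547), 2 in the sections labelled PTX+ABT263 against PTX (Dnajc1 and Hspb1, of 712) and 14 for any difference (of 1944), and in the isocortex 1 (Dnajc21) in PTX against Control and 1 (Dnajb5) in PTX+GCV against PTX. With total counts in place of TMM factors, 2 members (Dnajb1 and Hspa2) were called for any difference and 1 (Dnajc21) in the isocortex of PTX against Control, where DESeq2 also called 1. Leaving out each section in turn gave 0 to 1 members for any difference (Hspa2 without Control 1 and Hspa1b without PTX+GCV 1) and 0 to 1 in the isocortex of PTX against Control.

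Of the pairs of a member and an area, 11 higher and 14 lower remained at a threshold of 2 times. Of 25 higher and 30 lower pairs, 23 and 26 were kept with TMM factors (Dnaja4, Dnaja2 and Dnajb6 in the choroid plexus, Dnajb6 and Dnajc6 in the fiber tracts and Hspa2 in the hippocampus were lost). With totals without mitochondrial genes 21 and 30 were kept (Dnaja4, Hsp90b1 and Hspa2 in the choroid plexus and Hspa2 in the hippocampus were lost). Where 30 or more UMIs were expected in the area, 21 and 25 were kept. The higher pairs lost were Dnajb13, Hspb6 and Hspb8 in the choroid plexus and Hspb8 in the meninges. The lower pairs lost were Hspb3 and Hspa1l in the habenula and Dnajb13 in the Ccn3 cluster, the thalamus and the reticular thalamus and pallidum. Both scalings and the limit on expected UMIs were chosen after seeing the data. None turned direction under any setting tried.

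With the replicate number as a block, 0 members were called in each of the 10 comparisons. Same-numbered sections did not deviate together (correlations from -0.115 to 0.0662), so the numbers give no pairing.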
